A study of Mus musculus with 20 samples.

Results

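Slc12a1, Kcnj1, Slc12a3, Pvalb, Calb1 and Trpm6 are transport and calcium-buffering genes of the loop of Henle and the distal convoluted tubule, and all 6 were found by symbol among the 6025 genes of the deposited table. The 2 thick ascending limb genes are Slc12a1 and Kcnj1, and the 4 distal convoluted tubule genes are Slc12a3, Pvalb, Calb1 and Trpm6. The question was how thick limb and distal convoluted tubule transcripts compared in each of 3 forms of acute kidney injury. All animals were wild-type C57BL/6 mice aged 8 weeks, and RNA came from renal cortex, which holds cortical thick limb and distal convoluted tubule but little of the medulla. The 8 control mice are marked mock in the sample labels, while the design text speaks of mock and vehicle animals, so the kinds of control cannot be told apart. The injured mice were 4 taken 24 h after ischemia-reperfusion injury (IRI, in which blood flow to the kidney is stopped and restored), 4 taken 24 h after rhabdomyolysis (muscle breakdown, which loads the kidney with heme protein) and 4 taken 72 h after cisplatin (a DNA-crosslinking chemotherapy drug). Sex, dose and ischemia time were not given in the sources used here. The design text calls the animals biological replicates, and each library was 1 mouse.

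The thick ascending limb reabsorbs salt without water and so dilutes the urine and builds the medullary concentration gradient. Its apical Na-K-2Cl cotransporter, NKCC2, is the product of Slc12a1 and the target of loop diuretics, and the apical potassium channel ROMK, the product of Kcnj1, returns potassium to the lumen so that the cotransporter can keep turning. ROMK is also made further along the nephron, in connecting tubule and collecting duct principal cells, so Kcnj1 marks the thick limb less tightly than Slc12a1. The distal convoluted tubule follows, and reabsorbs salt through the thiazide-sensitive cotransporter NCC, the product of Slc12a3. It is also the segment that sets the final urinary magnesium, through the apical channel TRPM6. Parvalbumin (Pvalb) is a cytosolic calcium-binding protein of its early part, and calbindin-D28k (Calb1) is the calcium carrier of its late part and of the connecting tubule.

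Promoter stretches of 3 of these genes are shown: Slc12a1 and Slc12a3, which changed places between injuries, and Pvalb, which had the largest fall of the 6 genes. They are RefSeq sequence on GRCm38.p6, limited to bases before every annotated start. RefSeq windows of 300 bases matched 5 of the 6 genes, and no window was used for Calb1. None of the motifs searched lies in the printed bases, so no letters are in capitals.
Slc12a1, chr2:125152350-125152504, plus strand: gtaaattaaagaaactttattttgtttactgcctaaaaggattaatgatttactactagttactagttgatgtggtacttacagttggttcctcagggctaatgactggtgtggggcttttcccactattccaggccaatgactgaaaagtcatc
Slc12a3, chr8:94328958-94329108, plus strand: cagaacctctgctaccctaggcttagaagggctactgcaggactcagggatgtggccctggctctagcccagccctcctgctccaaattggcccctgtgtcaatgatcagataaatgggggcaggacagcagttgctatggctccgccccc
Pvalb, chr15:78206401-78206650, minus strand: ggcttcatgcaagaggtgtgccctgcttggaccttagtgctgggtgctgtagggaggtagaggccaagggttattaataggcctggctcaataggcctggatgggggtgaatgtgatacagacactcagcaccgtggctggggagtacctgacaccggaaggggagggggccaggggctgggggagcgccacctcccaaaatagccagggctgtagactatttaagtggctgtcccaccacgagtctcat
Motifs were searched on both strands of the whole windows. The TATA box (TATAAA, where the general transcription machinery assembles) was found in the Slc12a3 window, 32 bases upstream of the start and outside the printed stretch, and in 13.6% of all 32851 promoter windows. The nuclear receptor motif AAGGTCA and the AP-1 site TGANTCA, present in 4.72% and 7.81% of windows, were in none of the members' windows. A match is a description of letters only.

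The deposited values are read counts scaled to library size (CPM, counts per M reads, where M stands for mega), and the reads of all genes in the table came to 3.58 to 5.40 M per control library, 3.48 to 4.22 M after IRI, 3.99 to 4.73 M after rhabdomyolysis and 3.89 to 4.89 M after cisplatin. Those reads were 55.3% to 70.6% of the library size behind the CPM in controls and 42.1% to 48.3% in injured mice. The table is a selection: each of its 6025 genes differed at least 1.5-fold from the mean of the 8 controls in at least 1 injury, so the presence of a gene here already means that it moved somewhere. Library identifiers fall in 2 ranges, so IRI was set against controls 1 to 4, and rhabdomyolysis and cisplatin, which thereby share their controls, against controls 5 to 8. Between the ranges of controls, limma called 0 of 5672 genes (454 at an unadjusted p under 0.05), and the adjusted p of the 6 genes ran from 0.858 to 0.998.

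In healthy cortex the 3 most abundant of the 6 genes per transcript length were Calb1, Slc12a3 and Slc12a1. On a scale of CPM per kilobase of the longest coding transcript, the 8 controls gave 164 ± 34.1 for Calb1, 161 ± 32.1 for Slc12a3 and 161 ± 39.7 for Slc12a1 (SD, n = 8), which do not differ beyond their spread. Kcnj1 followed at 107 ± 14.4. Its highest control value, 136, lay above the lowest of Slc12a1 (113), Slc12a3 (116) and Calb1 (132). Pvalb stood at 24.7 ± 3.63 and Trpm6 at 3.21 ± 1.23, each apart from its neighbours. The genes lie on chromosomes 2 (Slc12a1), 9 (Kcnj1), 8 (Slc12a3), 15 (Pvalb), 4 (Calb1) and 19 (Trpm6), so none of them neighbour each other.

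The order of the levels changed with injury. After IRI, Slc12a3 led at 88.5 ± 14.7 CPM per kilobase, Kcnj1 and Calb1 followed at 46.4 ± 8.22 and 42.1 ± 24.3, and Slc12a1 had the lowest mean of these 4, at 14.8 ± 3.88 (SD, n = 4). Calb1, the most spread, overlapped Slc12a3 above it and Slc12a1 below it. Rhabdomyolysis gave the same order of means, with Slc12a3 at 106 ± 16.0, Kcnj1 at 37.3 ± 5.60, Calb1 at 32.8 ± 12.6 and Slc12a1, which overlapped both Kcnj1 and Calb1, at 18.2 ± 9.10. After cisplatin the order turned over: Slc12a1 stood at 40.5 ± 4.77, Calb1 at 36.0 ± 8.54, Kcnj1 at 32.7 ± 1.90 and Slc12a3, the most abundant of these 4 in the other injuries, was last at 25.9 ± 5.61. Kcnj1 and Calb1 did not differ beyond their spread in any injury, and after cisplatin neither did any other neighbours in this order of 4, although every Slc12a1 value was above every Slc12a3 value. Trpm6 and Pvalb were the lowest in all 4 groups, and Pvalb fell from above Trpm6 in controls to below it in the means of every injury, though after cisplatin their values of 1.52 ± 0.402 and 1.09 ± 0.445 lie within the spread.

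**Figure D1:**
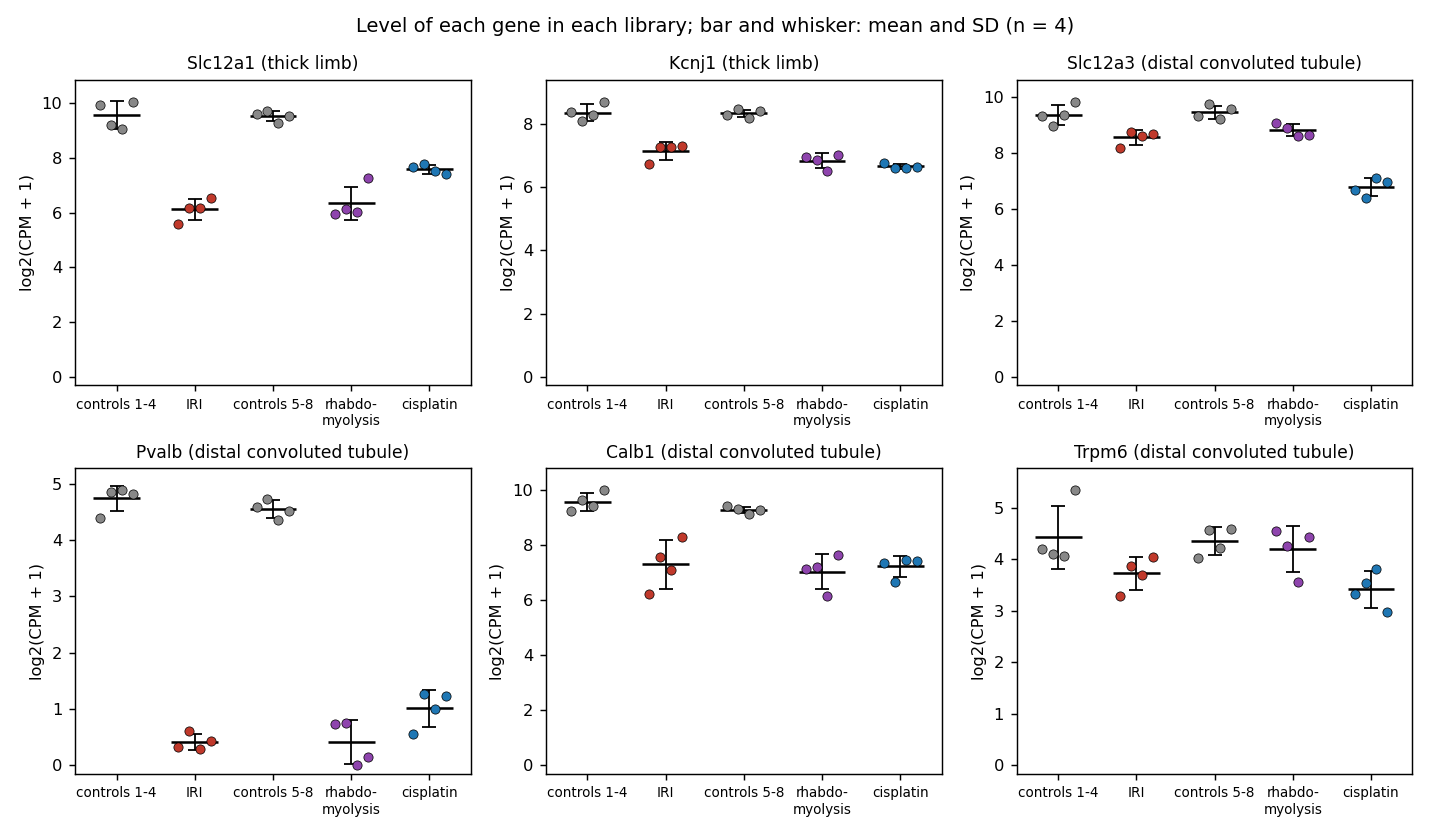
Level of each gene in every library, as log2(CPM + 1), by group; points are libraries, bars are means and whiskers SD (n = 4). Injured libraries lie below their matched controls in every panel except Trpm6 after rhabdomyolysis, and cisplatin sits highest of the injuries for Slc12a1 and lowest for Slc12a3.

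All 6 genes were called lower after IRI and after cisplatin, and 5 of 6 after rhabdomyolysis, with Trpm6 the exception (limma, adjusted p under 0.05). Among all 5672 genes tested the share called lower was 40.1% in IRI, 46.5% in rhabdomyolysis and 44.0% in cisplatin. By levels alone, all 4 injured libraries lay below all 4 matched controls for 6, 5 and 6 of the genes, against 35.4%, 44.4% and 41.4% of all genes tested. In whole-tissue RNA, fewer cells of a segment and less RNA per cell cannot be told apart. Sizes below are first in CPM and then as fitted differences of log2(CPM + 1), a scale on which low genes change by less than their true fold.

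Slc12a1, the cotransporter gene that defines the thick limb, had a deep fall in IRI and rhabdomyolysis and a smaller fall in cisplatin. Controls 1 to 4 gave 974, 579, 534 and 1059 CPM, and the IRI libraries 47.1, 70.7, 71.3 and 92.1 CPM. Controls 5 to 8 gave 772, 845, 616 and 729 CPM. Rhabdomyolysis libraries read 61.4, 69.4, 63.4 and 151 CPM, and cisplatin libraries 199, 219.5, 181 and 168 CPM. No injured library reached any control, and every cisplatin library was above every library of the other injuries; rhabdomyolysis 4 stood well above the other 3 of its group. The means were 8.94% of the matched controls after IRI, 11.6% after rhabdomyolysis and 25.9% after cisplatin, that is 11.2-, 8.59- and 3.86-fold lower. The fitted log2 differences were -3.44 (SE 0.25, limma adjusted p = 1.07e-10), -3.19 (adjusted p = 8.17e-11) and -1.94 (adjusted p = 3.26e-07).

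Kcnj1, the potassium channel that works beside NKCC2, fell in all 3 injuries, in each by less than Slc12a1. Its controls 1 to 4 read 330.0, 272, 313 and 418 CPM and its IRI libraries 105, 154, 154 and 158 CPM. Controls 5 to 8 read 313, 355, 292 and 338 CPM, rhabdomyolysis libraries 125, 116, 90.3 and 129 CPM, and cisplatin libraries 109, 96.6, 97.0 and 100.03 CPM. No injured library reached a control, and the cisplatin libraries were closer together than those of any other Kcnj1 group. Levels were 42.8%, 35.4% and 31.0% of matched controls in IRI, rhabdomyolysis and cisplatin, with log2 differences of -1.22 (limma adjusted p = 1.26e-07), -1.50 (adjusted p = 1.57e-09) and -1.68 (adjusted p = 4.68e-10), each with an SE of 0.14. The pair of thick limb genes thus parted in IRI and rhabdomyolysis: the ratio of Slc12a1 to Kcnj1 within a library was 1.71 to 2.95 in the 8 controls, 0.448 to 0.582 in IRI, 0.493 to 1.17 in rhabdomyolysis and 1.67 to 2.27 in cisplatin, where it overlapped the controls.

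Slc12a3, the cotransporter gene of the distal convoluted tubule, was lowest in cisplatin, the injury in which Slc12a1 was highest. Its level in controls 1 to 4 was 641, 499.9, 653 and 915 CPM, and in IRI 289, 430, 394 and 413 CPM. In controls 5 to 8 it was 636, 855, 601 and 766 CPM, in rhabdomyolysis 540, 482, 394 and 404 CPM, and in cisplatin 102, 83.3, 139 and 123 CPM. Every injured library lay below its controls, and the cisplatin libraries lay far below all other injured libraries. Its level was 56.3% of matched controls in IRI and 63.7% in rhabdomyolysis, against 15.6% in cisplatin, which is 6.399-fold lower than controls. The log2 differences were -0.81 (SE 0.18, limma adjusted p = 0.000392), -0.65 (adjusted p = 0.00196) and -2.68 (adjusted p = 1.23e-11). The 2 smaller falls depend on how libraries are scaled: after quantile normalization the IRI difference was -0.22 (adjusted p = 0.336) and the rhabdomyolysis difference 0.038 (adjusted p = 0.858), while cisplatin stayed at -2.33.

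Pvalb, the calcium-binding protein of the early distal convoluted tubule, was nearly lost in every injury. Controls held 140 to 220 reads each, at 20.0, 27.9, 28.4 and 27.2 CPM in controls 1 to 4 and 23.1, 25.5, 19.5 and 21.8 CPM in controls 5 to 8. The injured libraries held 2, 4, 2 and 3 reads after IRI, 7, 7, 0 and 1 after rhabdomyolysis, and 4, 14, 9 and 14 after cisplatin. The count of 0 in rhabdomyolysis 3 allows up to 3 reads, or 0.285 CPM. Summed over libraries and corrected for library size, control reads exceeded injured reads 76.6-fold in IRI (95% exact interval 42.6 to 154, from 11 injured reads), 59.6-fold in rhabdomyolysis (35.8 to 107, from 15) and 20.5-fold in cisplatin (14.96 to 28.9, from 41). These intervals cover counting error only, as reads were not marked by molecule. The log2 differences were -4.32, -4.14 and -3.53 (SE 0.19, limma adjusted p = 5.01e-14, 2.14e-14 and 3.27e-13).

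Calb1, which carries calcium in the late distal convoluted tubule and connecting tubule, fell to overlapping levels in the 3 injuries. Controls 1 to 4 read 599, 787, 681 and 1006 CPM and the IRI libraries 72.9, 188, 135 and 314 CPM. Controls 5 to 8 read 672, 630, 557 and 614 CPM, rhabdomyolysis libraries 138, 146, 70.7 and 200.1 CPM, and cisplatin libraries 163, 98.5, 175 and 172 CPM. The injured groups overlapped each other and none reached a control, with IRI spread most widely of the 3. Levels were 23.1%, 22.4% and 24.6% of matched controls, and the log2 differences -2.27 (SE 0.32, limma adjusted p = 1.92e-06), -2.24 (adjusted p = 9.50e-07) and -2.05 (adjusted p = 4.46e-06).

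Trpm6, the magnesium channel, fell in IRI and cisplatin, and its rhabdomyolysis libraries overlapped their controls. It read 17.4, 16.2, 15.6 and 39.3 CPM in controls 1 to 4 and 8.79, 13.6, 11.9 and 15.4 CPM in IRI. Controls 5 to 8 read 15.3, 22.6, 17.5 and 23.1 CPM, rhabdomyolysis libraries 22.5, 18.03, 10.8 and 20.7 CPM, and cisplatin libraries 8.99, 10.6, 13.1 and 6.88 CPM. IRI and cisplatin libraries lay below their controls, IRI by a narrow gap, while 3 of the 4 rhabdomyolysis libraries were within the control range. The level was 56.3% of matched controls in IRI and 50.4% in cisplatin, with log2 differences of -0.70 (SE 0.26, limma adjusted p = 0.0183) and -0.94 (adjusted p = 0.00210). In rhabdomyolysis the difference was -0.15 (95% interval -0.69 to 0.40, limma adjusted p = 0.588), which leaves room for a fall of up to 0.69 and does not show an unchanged level. The IRI call rested on single libraries: without control 4, at 39.3 CPM, it was -0.40 (adjusted p = 0.115), without IRI 1 it was -0.56 (adjusted p = 0.0722), and with 75th percentile scaling it was -0.57 (adjusted p = 0.0647).

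**Figure D2:**
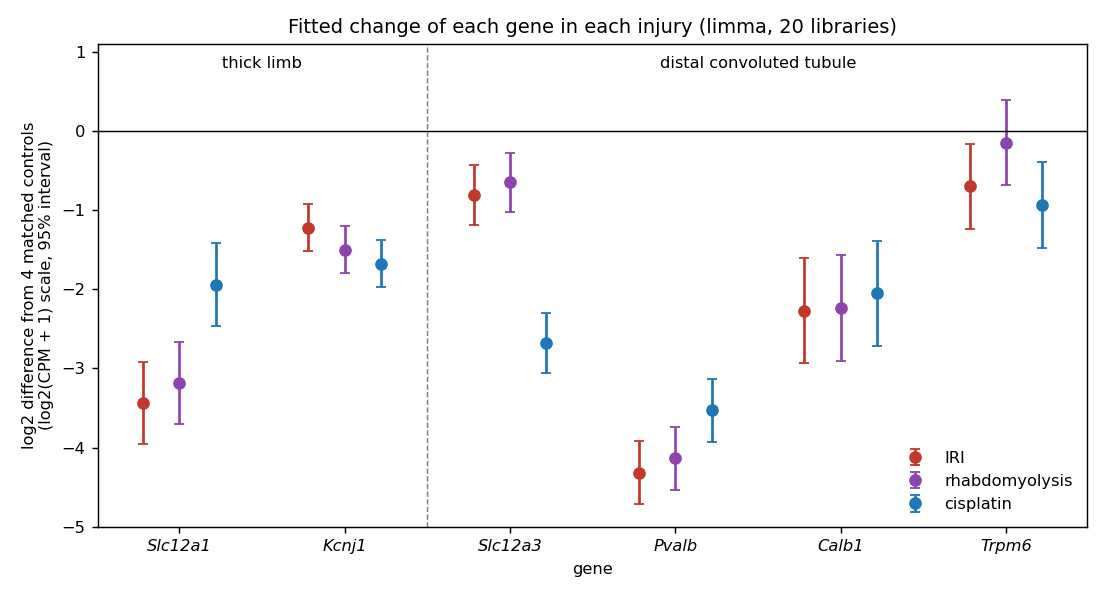
Fitted log2 difference of each gene from its 4 matched controls in each injury on the log2(CPM + 1) scale (limma), with 95% intervals. Slc12a1 has its smallest fall and Slc12a3 its largest fall in cisplatin, and the Trpm6 interval in rhabdomyolysis spans 0.

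Set side by side by their medians, these 2 thick limb genes were lower than these 4 distal convoluted tubule genes at 24 h after IRI and rhabdomyolysis, and higher at 72 h after cisplatin. The turn in cisplatin was not seen in the wider lists of genes of both segments as deposited, where the thick limb median was the lower (-1.53 against -1.48). In IRI the median log2 difference was -2.33 for the 2 thick limb genes and -1.54 for the 4 distal convoluted tubule genes, a gap of -0.79 (SD 0.25 over 4 libraries). In rhabdomyolysis the medians were -2.34 and -1.44, a gap of -0.90 (SD 0.30). In cisplatin they were -1.81 and -2.36, a gap of 0.56 (SD 0.42). The gap had the same sign in all 4 libraries of each injury, from -0.53 to -1.07 in IRI, -0.59 to -1.19 in rhabdomyolysis and 0.21 to 1.12 in cisplatin. Cisplatin 2 was the largest of these, and without it the gap was 0.37. These medians carry no test. Genes of the same segment differed more among themselves than the segment medians did, from -4.32 for Pvalb to -0.70 for Trpm6 within the distal convoluted tubule in IRI; the exception was the thick limb pair in cisplatin, at -1.94 and -1.68.

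The cotransporter genes were also compared directly, NKCC2 of the thick limb against NCC of the distal convoluted tubule. Their ratio within a library is not changed by scaling that library by a single factor, though quantile normalization can change it. Slc12a1 to Slc12a3 was 0.818 to 1.52 in the 8 controls (median 1.09), 0.163 to 0.223 in IRI and 0.114 to 0.373 in rhabdomyolysis. In cisplatin it was 1.31 to 2.64, above all of controls 5 to 8 (0.952 to 1.21) but overlapping control 1 of the other range. Rhabdomyolysis 4, with the high Slc12a1 value, gave the 0.373; the other 3 libraries gave 0.114, 0.144 and 0.161.

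The ratio of Kcnj1 to Slc12a3 moved the same way with no overlap in any injury. It was 0.415 to 0.545 in controls, 0.359 to 0.390 in IRI, 0.229 to 0.318 in rhabdomyolysis and 0.70 to 1.16 in cisplatin. Within the distal convoluted tubule, the ratio of Calb1 to Slc12a3 was higher in every cisplatin library than in any library of the other injuries. It was 0.737 to 1.57 in controls, 0.252 to 0.761 in IRI, 0.179 to 0.495 in rhabdomyolysis and 1.18 to 1.60 in cisplatin. IRI lay below controls 1 to 4 (0.934 to 1.57) and cisplatin above controls 5 to 8 (0.737 to 1.06). Each of these injuries overlapped only controls of the other range. Trpm6 to Slc12a3 was 0.0239 to 0.0429 in controls, 0.0303 to 0.0374 in IRI, 0.0275 to 0.0511 in rhabdomyolysis and 0.0559 to 0.127 in cisplatin, where all 4 libraries exceeded all controls. In every cisplatin library the ratios of Slc12a1, Kcnj1, Calb1 and Trpm6 to Slc12a3 all lay above controls 5 to 8.

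**Figure D3:**
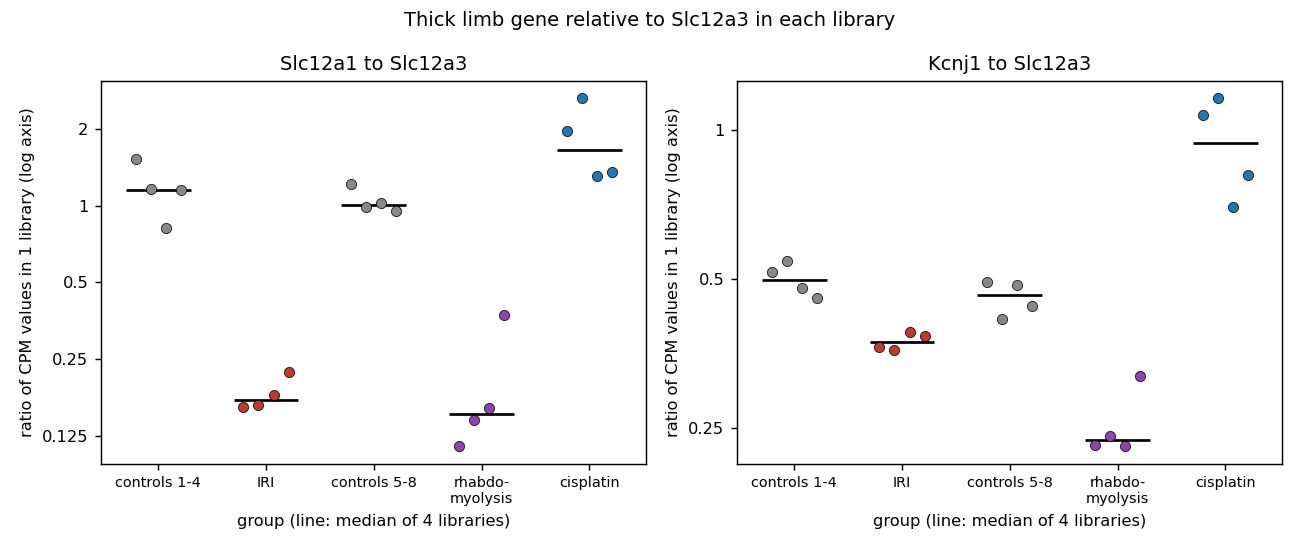
Ratio of Slc12a1 to Slc12a3 (left) and of Kcnj1 to Slc12a3 (right) in each library on a log axis, by group, with lines at the median of 4 libraries. IRI and rhabdomyolysis lie below the controls in both panels; cisplatin lies above controls 5 to 8 in both, with Slc12a1 to Slc12a3 overlapping control 1 at 1.52.

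Injuries were then compared with each other. Rhabdomyolysis and cisplatin differed in 4 of the 6 genes (limma, adjusted p under 0.05), against 54.1% of all genes tested. Slc12a1 was lower in rhabdomyolysis by a log2 difference of -1.25 (adjusted p = 0.000263), Slc12a3 higher by 2.03 (adjusted p = 5.28e-09), Pvalb lower by -0.60 (adjusted p = 0.0112) and Trpm6 higher by 0.79 (adjusted p = 0.0141). The difference was 0.18 for Kcnj1 (95% interval -0.12 to 0.47, limma adjusted p = 0.302) and -0.19 for Calb1 (-0.85 to 0.48, adjusted p = 0.644). The size for Pvalb, which has few reads in injured mice, depended on the scale: it was -1.69 with a pseudocount of 0.1 and -1.49 with edgeR on recovered reads. The Pvalb and Trpm6 calls were narrow. Without rhabdomyolysis 3 the Pvalb adjusted p was 0.0531, and for Trpm6 it was 0.0512 without rhabdomyolysis 1 and 0.0585 without cisplatin 4. Injury and sampling time, 24 h against 72 h, cannot be told apart here.

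IRI was compared through the difference between its effect and the effect of each other injury, because its libraries and controls have their own identifier range. Against cisplatin, the effects differed for 3 of the 6 genes, with 30.3% of all genes tested called. Slc12a1 fell further in IRI (difference between effects -1.50, 95% interval -2.23 to -0.76, limma adjusted p = 0.00279). Slc12a3 fell less (1.87, 1.34 to 2.40, adjusted p = 1.03e-05). For Pvalb the difference was -0.79 (adjusted p = 0.0325), a size that was -1.54 with a pseudocount of 0.1 and -1.84 with edgeR. That call was lost in 12 of 27 alternatives, with limma adjusted p up to 0.0918. Kcnj1 gave 0.46 (0.04 to 0.87, limma adjusted p = 0.0881), Calb1 -0.22 (-1.16 to 0.72, adjusted p = 0.752) and Trpm6 0.24 (-0.53 to 1.00, adjusted p = 0.665).

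Between IRI and rhabdomyolysis, both sampled at 24 h, no difference between effects was called for any of the 6 genes by limma, while 52.0% of all genes tested were called. The count was 0 at an unadjusted p under 0.05 as well, and 0 with edgeR's quasi-likelihood test on recovered reads. Intervals were wide: -0.99 to 0.48 for Slc12a1, -0.13 to 0.70 for Kcnj1, -0.69 to 0.37 for Slc12a3, -0.75 to 0.38 for Pvalb, -0.97 to 0.91 for Calb1 and -1.32 to 0.21 for Trpm6. A missed threshold does not show that the effects were alike.

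Other genes were read from lists of thick limb, distal convoluted tubule and related genes. In whole-cortex RNA, a change of a listed gene cannot be assigned to 1 segment. Of the 15 further thick limb genes, 8 were in the table, and 7 of them fell and 1, Cldn14, rose in each injury (limma, adjusted p under 0.05). Of all genes tested, 40.1%, 46.5% and 44.0% were called lower and 40.6%, 48.8% and 47.8% higher. These shares stand beside the counts of every list below. The median log2 differences of the 8 were -1.23, -1.45 and -1.53, beside medians over all genes tested of 0.08, 0.31 and 0.30. Ppp1r1b, which encodes the phosphatase inhibitor DARPP-32, went from 46.2 ± 8.31 CPM in the 8 controls to 3.42 ± 0.783 in IRI, 3.25 ± 1.43 after rhabdomyolysis and 11.6 ± 2.56 after cisplatin. Like Slc12a1, it was kept best in cisplatin, with 25.6% of matched controls against 7.30% in IRI and 7.15% in rhabdomyolysis.

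Cldn10, a claudin gene, had another order. Its Cldn10b isoform forms the sodium-permeable paracellular pore of the thick limb and its Cldn10a isoform is a proximal tubule claudin, so the value per gene cannot be assigned to the thick limb. From 224 ± 33.7 CPM in controls it went to 118 ± 23.1 in IRI, 17.5 ± 2.75 after rhabdomyolysis and 63.8 ± 14.5 after cisplatin. Casr, the calcium-sensing receptor, stood at 63.6 ± 11.97 CPM in controls and was lowest in cisplatin, at 12.6 ± 1.90 CPM or 19.2% of matched controls. The gene that rose was Cldn14, the claudin that blocks paracellular calcium in the thick limb and is raised by calcium-sensing receptor signalling. It passed the filter on mean CPM only through the injured groups, so its rise is a description and supports nothing about the list. It was at most 0.28 CPM in any control and read 3.28 to 8.92 CPM in IRI, 1.48 to 4.47 in rhabdomyolysis and 0.48 to 2.01 in cisplatin. After quantile normalization its cisplatin call was lost (limma adjusted p = 0.0543), and with 75th percentile scaling 5 rather than 7 of the 8 genes were called lower in rhabdomyolysis. Umod, Cldn16, Cldn19 and the macula densa genes Nos1 and Pappa2 were not analysed here.

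All 7 of the 9 further distal convoluted tubule genes that were in the table fell in each injury, with medians of -0.95, -1.30 and -1.48. Which of the further lists had the lower median depended on scaling. The thick limb median was the lower as deposited (-1.23, -1.45 and -1.53) and with 75th percentile scaling, in all 3 injuries. Under quantile normalization it was the lower in IRI (-1.17 against -0.93) and the higher in rhabdomyolysis (-1.34 against -1.40) and cisplatin (-1.52 against -1.78). Abca13, a large lipid transporter of the ABC family, went from 90.2 ± 19.8 CPM in controls to 9.97 ± 3.70 in IRI, 12.5 ± 5.56 after rhabdomyolysis and 15.5 ± 1.62 after cisplatin. Emx1, a homeobox transcription factor, was kept at 46.3% of matched controls in IRI and at 13.6% and 16.8% in rhabdomyolysis and cisplatin, so that its order of injuries was not that of Slc12a3. The count for IRI was 6 of 7 after quantile normalization, where Hsd11b2, the enzyme that inactivates glucocorticoids in aldosterone-sensitive cells, was at -0.16 (adjusted p = 0.317).

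Calcium and magnesium genes fell in 8 of 10 and rose in 2 of 10 in each injury, with medians of -0.82, -1.41 and -1.13 in IRI, rhabdomyolysis and cisplatin. Egf, the growth factor precursor made by thick limb and distal convoluted tubule cells and a regulator of TRPM6, had the deepest fall, from 1165 ± 311 CPM in controls to 23.6 ± 7.02 in IRI, 31.1 ± 15.3 after rhabdomyolysis and 52.9 ± 2.74 after cisplatin, or 2.096%, 2.58% and 4.39% of matched controls. Those that rose were Atp2b1, a plasma membrane calcium pump, from 75.6 ± 14.1 CPM to 104 ± 10.9, 179 ± 16.7 and 125 ± 10.2, and Slc41a1, a magnesium transporter, from 36.7 ± 4.40 CPM to 49.6 ± 9.03, 69.3 ± 6.16 and 61.2 ± 2.66. With 75th percentile scaling or quantile normalization 6 or 7 of the 10 were called lower in each injury.

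Basolateral channel and pump genes were called lower in 6 of 6 in each injury, led by Bsnd (barttin, the subunit the ClC-K chloride channels need), at 38.2%, 21.2% and 24.7% of matched controls. The medians were -0.86, -1.32 and -0.89 as deposited, and -0.37, -0.66 and -0.46 after quantile normalization. With 75th percentile scaling 5 of the 6 were called lower in rhabdomyolysis. After quantile normalization 3, 5 and 5 of the 6 were called lower in IRI, rhabdomyolysis and cisplatin, and Atp1b1, the beta subunit of the sodium pump, was higher in cisplatin by 0.56 (limma adjusted p = 0.00151).

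Regulators of the cotransporters fell in 4 of 5 and rose in 1 of 5 in each injury, with medians of -0.60, -1.13 and -1.15. After quantile normalization the medians were -0.32, -0.58 and -0.66. Klhl3, the adaptor through which WNK kinases are degraded, went from 22.1 ± 6.77 CPM to 5.84 ± 0.990, 4.70 ± 0.778 and 3.80 ± 1.47. The gene that rose was Sgk1, the aldosterone-induced kinase, from 58.6 ± 10.7 CPM to 99.8 ± 52.4 in IRI, 224 ± 68.3 after rhabdomyolysis and 184 ± 9.44 after cisplatin. In IRI 3 of the 5 were called lower under 75th percentile scaling and 2 under quantile normalization.

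The list of distal nephron transcription factors was split. It includes the coactivator gene Ppargc1a, whose change in whole-cortex RNA cannot be assigned to the distal nephron. Of 6, 3 fell, 1 rose and 2 did not pass in IRI, while 4 fell and 2 rose in both rhabdomyolysis and cisplatin. Among all genes tested, 40.1% fell and 40.6% rose in IRI, 46.5% and 48.8% in rhabdomyolysis, and 44.0% and 47.8% in cisplatin. The medians of the 6 were -0.24, -1.07 and -0.71. Esrrb, an orphan nuclear receptor, went from 33.3 ± 3.78 CPM to 8.88 ± 3.32, 10.1 ± 3.91 and 14.96 ± 1.35. Ppargc1a, the coactivator PGC-1α that drives mitochondrial gene expression, went from 90.2 ± 17.5 CPM to 48.4 ± 8.44, 32.3 ± 7.89 and 39.6 ± 5.15. The epithelial factors Grhl2 and Ehf rose in rhabdomyolysis, to 303% and 248% of matched controls, and in cisplatin, to 165% and 170.0%. In IRI, Ehf rose to 139% and Grhl2 was at 128% (limma adjusted p = 0.0784). With 75th percentile scaling 2 of the 6 were called lower and 2 higher in IRI: Grhl2 passed (limma adjusted p = 0.026) and Pou3f3, a POU-domain factor named after its values were seen, did not (-0.20, adjusted p = 0.0900).

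**Figure D4:**
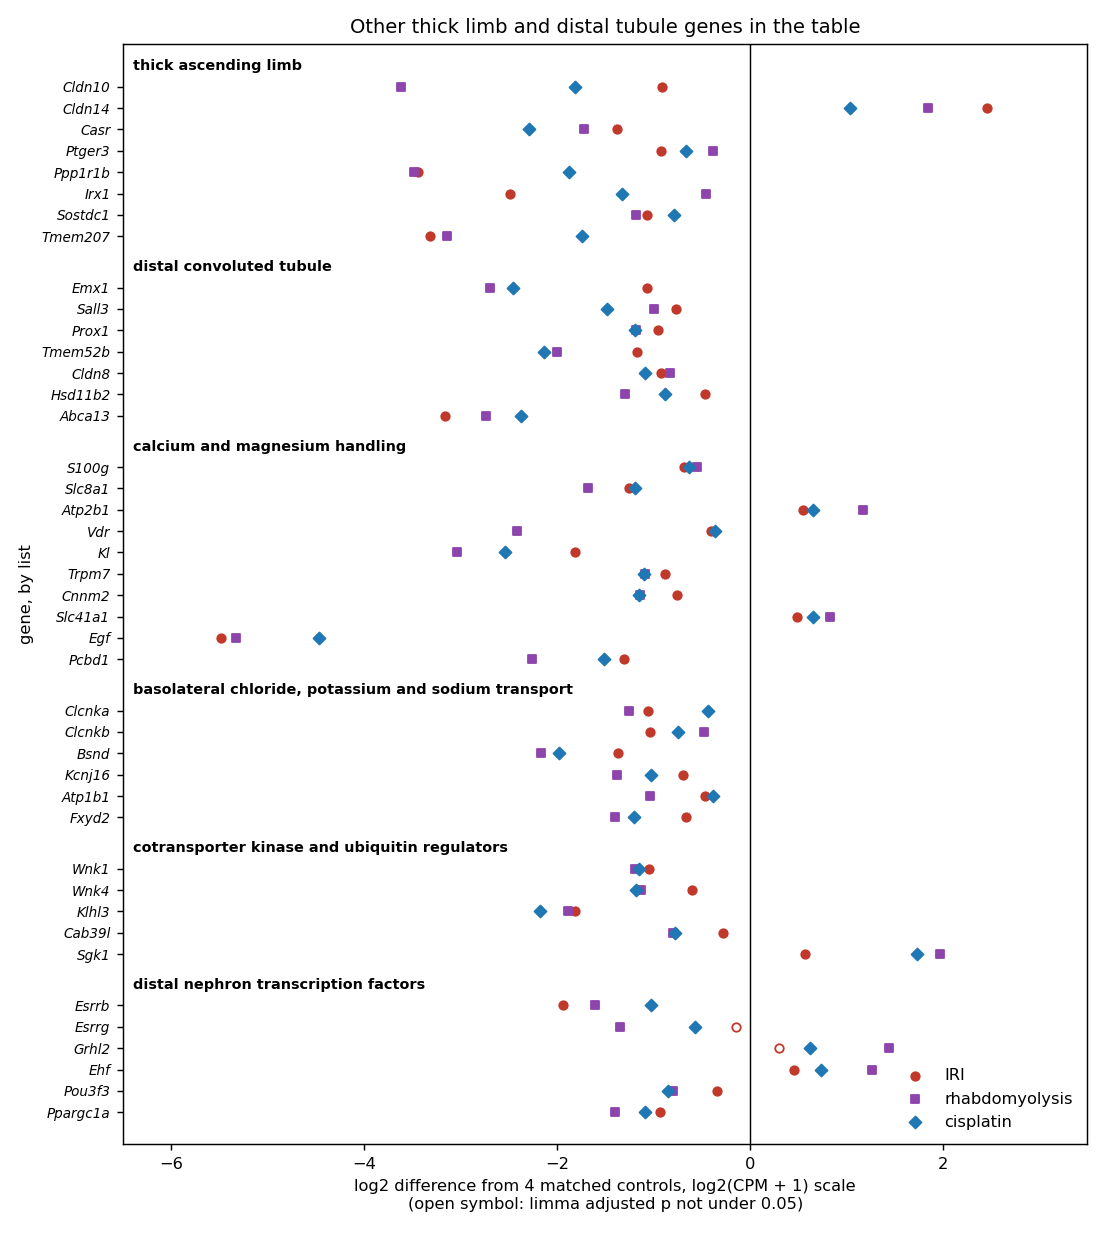
Log2 difference of each gene of the thick limb, distal convoluted tubule and related lists from matched controls in each injury, by list. The scale is log2(CPM + 1), and open symbols did not pass (limma). Most points lie below 0, and Cldn14, Atp2b1, Slc41a1, Sgk1, Grhl2 and Ehf lie above it.

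The genes whose pattern over the 20 libraries was most like that of each cotransporter were different ones. For Slc12a1 they were Esrrb (Pearson r = 0.978), Egf (0.9752) and Ppp1r1b (0.9751), and for Slc12a3 they were Ppm1l (0.9501), 2210408I21Rik (0.944) and Klf12 (0.935). Between Slc12a1 and Slc12a3 themselves r was 0.404. Slc12a1 was closer to the distal convoluted tubule genes Pvalb (0.933) and Calb1 (0.891) than to Kcnj1 (0.851), and gave 0.491 with Trpm6. Kcnj1 and Slc12a3 gave 0.777, so these patterns did not group by segment. These are descriptions over libraries that share controls and scaling, and that mix injured with control mice.

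Genes of other cell types moved in the same libraries. All 7 proximal tubule genes on the list were in the table, and 6, 7 and 7 of them fell in IRI, rhabdomyolysis and cisplatin, with medians of -1.23, -2.91 and -2.04. After quantile normalization 4 of the 7 were called lower in IRI, with a median of -0.51. Their summed level was 11141 to 17058 CPM in controls, 3951 to 4969 in IRI, 2153 to 2697 in rhabdomyolysis and 2240 to 3891 in cisplatin. Of 6 principal cell genes only Aqp3 was in the table, at 139 to 183 CPM in controls, 69.6 to 112 in IRI, 48.7 to 99.6 in rhabdomyolysis and 73.3 to 93.6 in cisplatin. The 2 of 6 intercalated cell genes in the table summed to 121 to 249 CPM in controls and to 43.2 to 83.0 in injured mice, and fell in every injury.

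Markers of non-tubular cells were higher or mixed, and not every gene was called in every injury. The 4 neutrophil genes summed to 1.48 to 3.07 CPM in controls, 9.61 to 21.4 in IRI, 19.4 to 44.2 in rhabdomyolysis and 12.6 to 30.3 in cisplatin. Among them Il1b was not called in IRI (limma adjusted p = 0.212). The 5 of 6 macrophage genes in the table summed to 175 to 277 CPM in controls, 106 to 144 in IRI, 149 to 274 in rhabdomyolysis and 230.4 to 293 in cisplatin. These sums join genes that went opposite ways, with 2 of the 5 called higher and 2 lower in IRI and 3 higher and 2 lower in the other injuries: Cd68, a lysosomal protein of macrophages, rose by 1.70, 3.04 and 4.47 on the log2 scale, while the growth factor receptor gene Csf1r (-1.54, -0.95 and -0.85) and the antigen presentation gene Cd74 (-1.39, -0.70 and -0.82) fell. The complement genes C1qa and C1qb rose in rhabdomyolysis (1.19 and 1.37) and cisplatin (1.28 and 1.23), and in IRI read 0.59 and 0.45, where only C1qa passed as deposited (limma adjusted p = 0.031) and it did not under quantile normalization (0.107). The Cd74 call in rhabdomyolysis was lost under quantile normalization (limma adjusted p = 0.0864). The 2 of 5 endothelial genes summed to 57.6 to 133 CPM in controls, 109 to 136 in IRI, 223 to 295 in rhabdomyolysis and 126 to 189 in cisplatin. In IRI and cisplatin the sums overlapped the controls, and Cdh5 was not called in IRI (limma adjusted p = 0.131). The 2 of 5 podocyte genes summed to 166 to 464 CPM in controls, 471 to 596 in IRI, 628 to 913 in rhabdomyolysis and 502 to 616 in cisplatin. Of these, Synpo was not called in rhabdomyolysis (limma adjusted p = 0.165) or cisplatin (0.0948) as deposited. It passed in both after quantile normalization. Genes induced in injured tubules (Havcr1, Lcn2 and Krt20) summed to 2.21 to 5.91 CPM in controls and to 2780 to 4747 in injured mice. No marker gene in the table was at 0 in all libraries of a group, and the part of these shifts in the falls of the 6 genes was not tested.

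Single libraries tended to be high or low across several of the 6 genes. Control 4 was the highest control for 5 of 6 genes and had the smallest share of its library in the table, 55.3%. IRI 1 was lowest in its group for 5 genes and IRI 4 highest for 4. Rhabdomyolysis 3 was lowest for 5. In cisplatin, cisplatin 2 was lowest for 3 genes (Kcnj1, Slc12a3 and Calb1) and highest for 2 (Slc12a1 and Pvalb). The part of the table share in these orders was not tested.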

How the data were processed

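Polyadenylated RNA from renal cortex of 20 mice was sequenced from stranded libraries, per the labels' protocols. FastQC, Bowtie2 2.1.0, RSEM 1.2.15, edgeR and the build GRCm38 (mm10) are named in the submitters' processing notes, with no roles given. The authors deposited CPM (counts relative to an effective size of each library) for 6025 genes, and no other sample columns were present. Every value was a whole multiple of its library's step (100% within 0.01 of a whole read, largest distance 5.07e-05), which gave reads. In cisplatin 2 the step of 0.101 CPM lies near 0.1, where rounding and reads are hard to separate.

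R 4.3.3 with limma 3.58.1 was run on log2(CPM + 1): 1 model of 5 cells (2 ranges of controls and 3 injuries) covered all 20 libraries, with the spread moderated along its trend with level. A mean below 1 CPM excluded a gene, which left 5672. Benjamini-Hochberg adjustment ran over these, at a threshold of 0.05. Reads were also tested with edgeR 4.0.16 (quasi-likelihood). Scripts were tested on simulated data. Precision at low levels was set by reads per library, with a floor of 3 reads.

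The members and gene lists were chosen with earlier results of these data known. Named genes are the members, Egf, and the largest fall and rise past the threshold in each list and injury. The 3 genes most like each cotransporter gene in pattern are named too. Atp1b1, Hsd11b2, Pou3f3, Cd68, Csf1r, Cd74, C1qa, C1qb, Il1b, Cdh5 and Synpo were named after their values were seen. Gene positions and lengths come from GENCODE M21. Replicate numbers did not pair samples. Alternatives covered pseudocount, filter, scaling, trend, controls, tool, replicate block and each library left out. Genes outside the table were not analysed here, and 1 transcription factor gene of the lists is not reported here.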

Additional observations from a re-analysis of the deposited data

Results flagged for a closer look

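Of 24 gene-by-group sets of values, 4 had a library set apart from the rest of its group by Dixon's criterion (gap to the nearest value over the range); chance sets apart about 1 in 20. Slc12a1 in rhabdomyolysis 4 had a gap ratio of 0.912, at 151 CPM against 61.4 to 69.4 CPM in the other libraries. Kcnj1 in IRI 1 had 0.914, at 105 CPM against 154 to 158 CPM. Calb1 in cisplatin 2 had 0.840, at 98.5 CPM against 163 to 175 CPM. Trpm6 in control 4 had 0.676, at 39.3 CPM against 15.3 to 23.1 CPM in the other controls.

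Of 18 differences between injuries tested for the 6 genes, 7 passed the threshold with limma. Among all genes tested, 54.1% were called between rhabdomyolysis and cisplatin. The share was 52.0% between the effects of IRI and rhabdomyolysis and 30.3% between those of IRI and cisplatin. Between rhabdomyolysis and cisplatin they were Slc12a1 (-1.25), Slc12a3 (2.03), Pvalb (-0.60) and Trpm6 (0.79). Between the effects of IRI and cisplatin they were Slc12a1 (-1.50), Slc12a3 (1.87) and Pvalb (-0.79).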

How the results depend on the processing

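Of 784 alternative values for single genes, 741 kept direction and side of the threshold, 19 changed sign, 20 lost a call and 4 gained one. Counts of the 6 genes called stayed within 1.5 times of the values given, and no gap between segments changed sign. Over all genes tested, those called between IRI and cisplatin effects went from 1716 to 2636 with all 8 controls. The added edgeR fit without cisplatin 2 was chosen after seeing the data.

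Sign changes were in values that had not passed, except for Slc12a3 in rhabdomyolysis, at 0.038 after quantile normalization. Trpm6 in rhabdomyolysis was 0.036 with 75th percentile scaling and -0.26 to 0.067 with 1 library left out. For the difference between IRI and rhabdomyolysis effects, Pvalb was 0.15 with a pseudocount of 0.1 and 0.0079 with all 8 controls. Calb1 was 0.26 with all 8 controls, 0.0458 with edgeR, 0.017 with edgeR and TMM, 0.0459 with edgeR without cisplatin 2, and -0.37 to 0.33 with 1 library left out. Slc12a1 was -0.42 to 0.050 with 1 library left out. Calb1 between IRI and cisplatin effects was 0.069 with all 8 controls and -0.56 to 0.14 with 1 library left out, and between rhabdomyolysis and cisplatin -0.39 to 0.10. The cause was not tested.

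Kcnj1 gained a call between rhabdomyolysis and cisplatin after quantile normalization (adjusted p = 0.0432), and between IRI and cisplatin effects with all 8 controls (0.00669), without control 4 (0.0274) and without IRI 1 (0.0191), all with limma. Pvalb between IRI and cisplatin effects lost its call in 12 of 27 alternatives. Pvalb between rhabdomyolysis and cisplatin had an adjusted p of 0.0621 after quantile normalization.

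Quantile normalization moved the median of all genes from 0.31 to 0.14 in rhabdomyolysis and from 0.30 to 0.03 in cisplatin, and 75th percentile scaling moved it from 0.08 to 0.19 in IRI and from 0.31 to 0.44 in rhabdomyolysis. Relative to that median, Slc12a3 in rhabdomyolysis was -0.95 as deposited, -0.90 under 75th percentile scaling and -0.10 under quantile normalization. The share lower among genes called between rhabdomyolysis and cisplatin went from 60.4% to 48.2%, and between IRI and cisplatin effects from 55.5% to 44.8%, after quantile normalization.

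Same-numbered libraries did not deviate together (r from -0.11 to 0.18 for IRI with controls 1 to 4, and -0.21 to 0.32 for rhabdomyolysis with cisplatin). With the replicate block 6 of 6 genes were lower in IRI and 3 differed between rhabdomyolysis and cisplatin, where Pvalb fell under the filter and was not tested; no call of a tested gene changed. Rhabdomyolysis and cisplatin share no numbers with controls 5 to 8, so no blocked fit was made there. Read depth limits Pvalb in injured mice and Cldn14 in controls.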
